A study of Homo sapiens with 10 samples.

Results

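The genes described here encode the insulin-like growth factor (IGF) binding proteins, their receptors and the enzymes that cut them. They were followed in MRC5 cells, a line of human lung fibroblasts, after exposure to medium in which A549 cells had been kept. A549 cells come from a lung adenocarcinoma and serve as a model of the alveolar lining. The genes were chosen by name: IGFBP2, IGFBP3, IGFBP4, IGFBP5, IGFBP6, IGFBP7, IGF1R, IGF2R, PAPPA and HTRA1. Of these 10, 8 were among the 14054 genes of the count table and all 8 passed the filter on low counts, which left 10968 genes to test. IGFBP4 and PAPPA were not analysed here.

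In 5 libraries the medium came from A549 cells that had not been stretched (static medium; static 1, 3, 5, 7 and 9). In the other 5 it came from stretched A549 cells (stretch medium; stretch 2, 4, 6, 8 and 10). All 10 libraries are of 1 cell line and neither group had unconditioned medium, so both share exposure to A549 products. The sample descriptions give 24 hours of exposure and the series design gives 6 hours, so the time is not settled. The labels do not state whether replicates were grown as independent cultures. The p-values therefore describe variation among these libraries, part of which may be technical. The study's title asks whether stretched epithelial cells act on fibroblasts through secreted products, and the comparison of the media bears on that question.

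IGF1 and IGF2 are growth factors that signal through the receptor tyrosine kinase IGF1R, while IGF2R carries IGF2 to the lysosome and does not signal as a kinase. Secreted IGF-binding proteins hold most of the extracellular IGF and set how much of it reaches the receptor. Proteases such as PAPPA, which cuts IGFBP4 and IGFBP5, and the serine protease HTRA1 release it again. Fibroblasts secrete several of these proteins, and IGFBP3, IGFBP5 and IGFBP7 are known in the literature as secreted products of senescent or fibrotic cells. IGFBP7 binds IGF weakly and is often described as an IGFBP-related protein.

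The binding proteins have a cysteine-rich amino-terminal module in common, and HTRA1 carries a related module ahead of its protease domain. Its hallmark is the run Cys-Gly-Cys-Cys. The codons for this run were looked for in frame, on the coding strand, in the GENCODE 29 transcripts (GRCh38). They are shown, with 15 bases on each side, because IGFBP7 and HTRA1 share them with IGFBP2, IGFBP3 and IGFBP5. Capitals mark the 4 codons:
IGFBP2: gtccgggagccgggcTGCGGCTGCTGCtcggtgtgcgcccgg
IGFBP3: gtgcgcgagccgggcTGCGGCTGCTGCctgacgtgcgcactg
IGFBP5: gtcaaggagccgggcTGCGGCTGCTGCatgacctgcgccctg
IGFBP7: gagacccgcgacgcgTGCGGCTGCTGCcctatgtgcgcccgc
HTRA1: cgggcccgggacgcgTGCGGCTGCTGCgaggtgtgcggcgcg

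Each of the 5 stretches lies in exon 1, on the strand of its gene: chr2:216633758-216633799 (plus) for IGFBP2, chr7:45920916-45920957 (minus) for IGFBP3, chr2:216694593-216694634 (minus) for IGFBP5, chr4:57110157-57110198 (minus) for IGFBP7 and chr10:122461821-122461862 (plus) for HTRA1. The 12 capital letters are identical in the 5 genes. In IGFBP2, IGFBP3 and IGFBP5 the run follows the letters gagccgggc, and in IGFBP7 and HTRA1 it follows gacgcg. The run was found in 50 of 19669 protein-coding genes (0.254%). It was not found in the coding sequences of IGFBP6, IGF1R or IGF2R.

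IGFBP7, the weak IGF binder, was the member with the largest difference between the media. Static libraries 1, 3, 5, 7 and 9 held 224, 206, 271, 343 and 350.2 CPM, counts expressed relative to the TMM-scaled total of the library. Stretch libraries 2, 4, 6, 8 and 10 held 122, 224, 160.4, 150 and 173 CPM. All stretch libraries but stretch 4 lay below every static library, and stretch 4 was level with static 1 and above static 3, so the groups overlapped. The static mean was 279 ± 66.3 CPM and the stretch mean 166 ± 37.7 CPM (SD, n = 5 each). Its log2 fold change, stretch minus static, was -0.75 ± 0.17 (SE), which is a level 40.5% lower with a 95% interval from 53.6% to 23.7% lower.

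IGFBP7 did not pass the threshold of 0.05 over all genes in edgeR's quasi-likelihood test (adjusted p = 0.0903, unadjusted p = 0.000398, place 46 of 10968 by p). The exact two-sided permutation test of its log2 CPM gave p = 0.0238, unadjusted, where 5 against 5 libraries cannot give less than 0.00794. It was 1 of 8 such tests on the members, and the test was also run on 53 other genes of the IGF axis. DESeq2 called IGFBP7 lower (adjusted p = 0.00626), as it called 2.86% of the 9420 genes to which it gave an adjusted p, and limma-voom did not (adjusted p = 0.114). Without stretch 4 edgeR called it as well (log2 fold change -0.88, adjusted p = 0.0362). In the other 9 fits that left out a library the estimate was between -0.84 and -0.65 and none was called. The plot of IGFBP7 by setting shows that every estimate lay on the same side of 0.

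**Figure D1:**
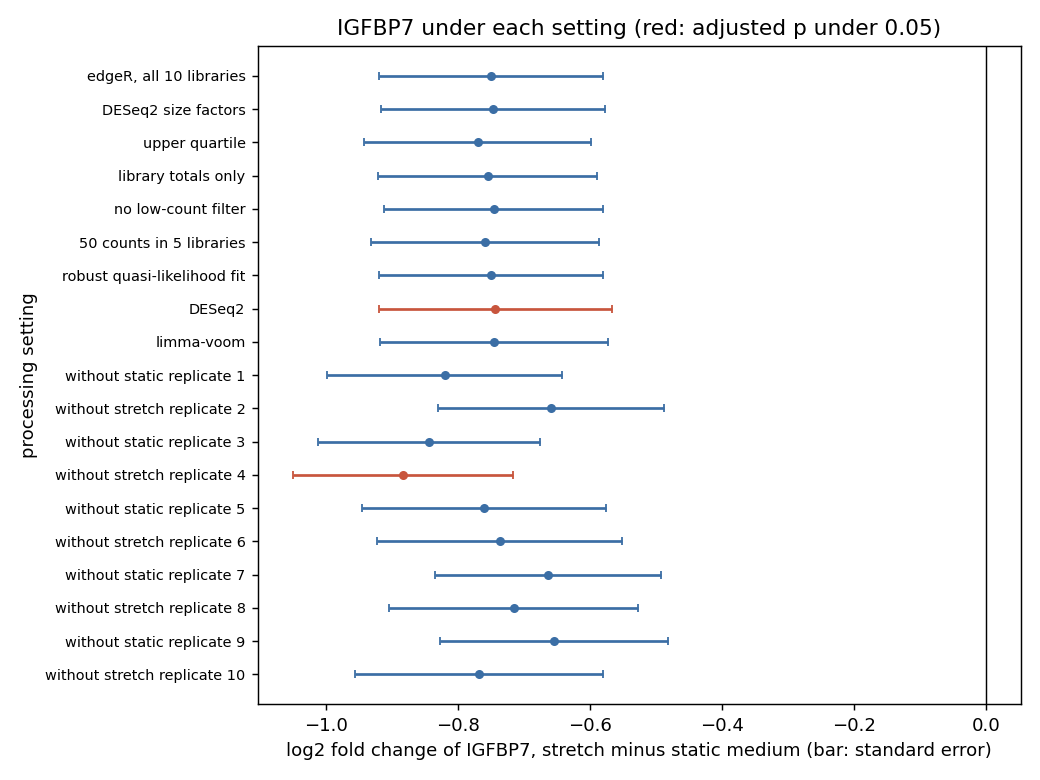
Log2 fold change of IGFBP7 (x axis, stretch minus static medium; bars are the standard error) under each processing setting (y axis), with settings whose adjusted p was under 0.05 in red. The estimates lie between -0.88 and -0.65, and only DESeq2 and the edgeR fit without stretch 4 are red.

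The IGFBP7 gene lies on chromosome 4 from 57030773 to 57110385 on the minus strand (GRCh38, GENCODE 29). Its exons share 270 bases with exons of POLR2B, a subunit of RNA polymerase II, and 94 bases with those of the antisense RNA IGFBP7-AS1, both on the opposite strand. Whether the counting used strand is not given in the sources used here, so reads in the shared bases cannot be assigned with certainty. POLR2B itself had a log2 fold change of -0.12 ± 0.12 (edgeR, adjusted p = 0.623). IGFBP7-AS1 was not analysed here. The same limit holds for IGFBP5, which shares 298 exon bases with AC007563.2, and for HTRA1, which shares 159 with BX842242.1. Both partners are antisense RNAs that were not analysed here.

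**Figure D2:**
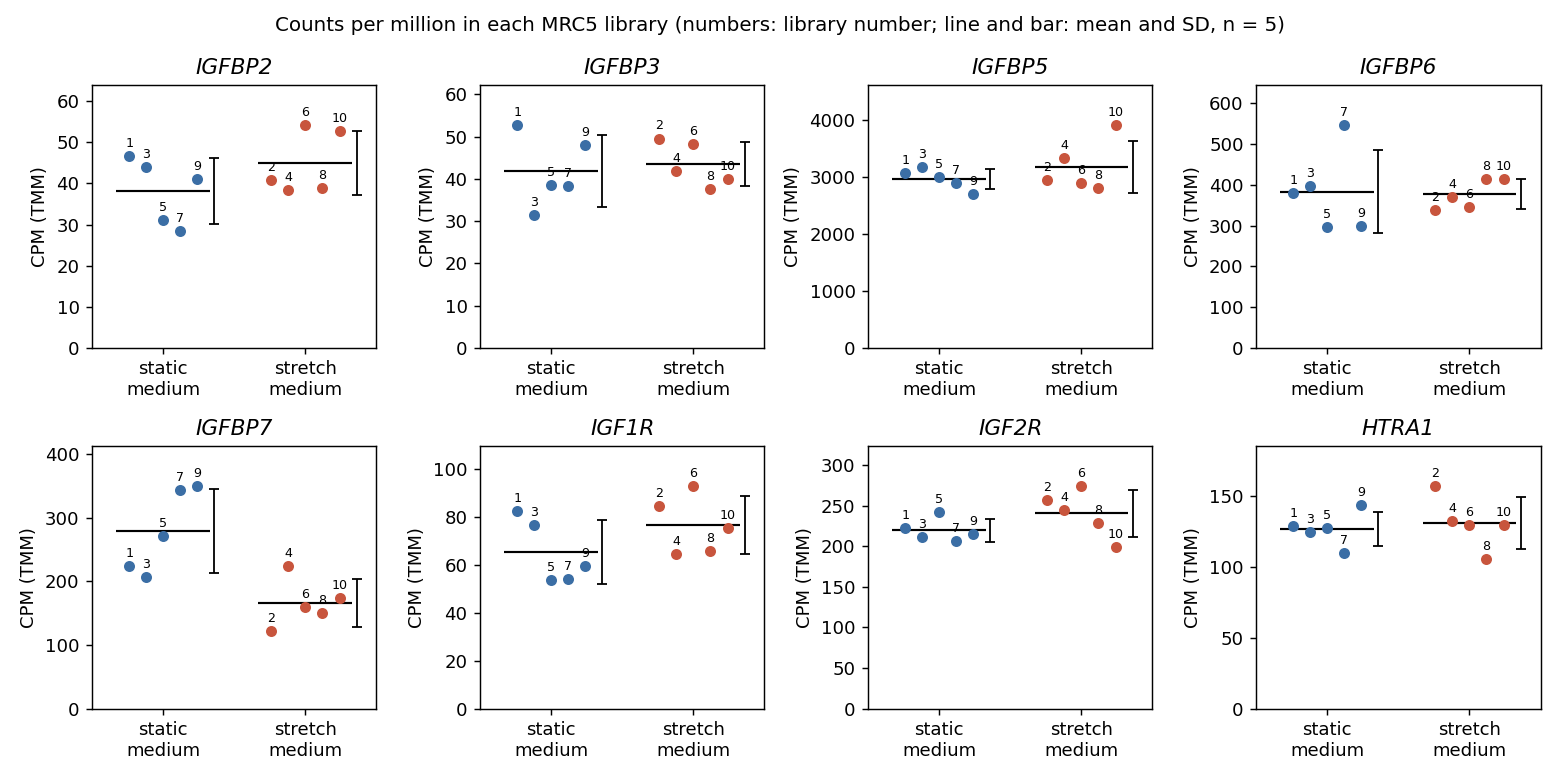
CPM (y axis, from 0) of the 8 analysed genes in each library, by medium (x axis); small numbers are library numbers, the line is the mean and the bar the SD over 5 libraries. IGFBP7 is the gene with 4 of 5 stretch points below every static point, and in the other 7 panels the groups also overlap, to differing degrees.

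Among the classical binding proteins, IGFBP5, a matrix-associated form and a product of lung fibroblasts, took the most reads of the 8 genes, with 13026 to 26869 counts per library. Levels are not ranked between genes, because each gene is read through its own amplicon. IGFBP5 was at 3071, 3168, 3006, 2892 and 2704 CPM in static 1, 3, 5, 7 and 9, and at 2948, 3337, 2889, 2814 and 3913 CPM in stretch 2, 4, 6, 8 and 10. Stretch 10 was the highest library and the other 4 stretch libraries lay within or just above the static range. Stretch minus static, it had a log2 fold change of 0.099 ± 0.10 (edgeR, adjusted p = 0.660), and the interval ran from 7.76% lower to 24.4% higher. Without stretch 10 the estimate was 0.013, so that library carried most of it. The static libraries were close to each other for this gene, with a coefficient of variation of 6.02%.

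IGFBP2, which binds IGF2 in preference to IGF1, lies next to IGFBP5 on chromosome 2 in tail-to-tail orientation, with 7668 bases between the annotated genes. It was at 46.6, 44.0, 31.2, 28.3 and 41.1 CPM in static 1, 3, 5, 7 and 9 and at 40.7, 38.3, 54.2, 38.8 and 52.8 CPM in stretch 2, 4, 6, 8 and 10. Stretch 6 and 10 were above the static range and static 5 and 7 below the stretch range. Its log2 fold change of 0.24 ± 0.16 did not pass (edgeR, adjusted p = 0.472), with an interval from 6.49% lower to 48.8% higher, and was 0.15 without static 7.

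IGFBP3, the main IGF carrier of serum, was at 52.7, 31.5, 38.6, 38.2 and 48.1 CPM in static 1, 3, 5, 7 and 9. It was at 49.6, 42.0, 48.2, 37.6 and 39.99 CPM in stretch 2, 4, 6, 8 and 10. The stretch values lay inside the static range. Its log2 fold change was 0.060 ± 0.14 (edgeR, adjusted p = 0.871), and with 1 library left out it ran from -0.032 (without static 3) to 0.15 (without static 1). The interval from 15.6% lower to 28.8% higher covers modest changes in either direction.

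IGFBP6, which favours IGF2, was at 379, 396, 297.5, 546 and 297.7 CPM in static 1, 3, 5, 7 and 9, and at 338, 369.5, 345, 414 and 415 CPM in stretch 2, 4, 6, 8 and 10. Static 7 was the highest library and static 5 and 9 the lowest. IGFBP6 had a log2 fold change of -0.027 ± 0.15 (edgeR, adjusted p = 0.946). Without static 7 it was 0.14, and it changed sign in 4 of 18 alternatives. The coefficient of variation was 26.6% in static and 9.82% in stretch libraries.

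The receptor genes had small positive estimates that did not pass. IGF1R, the signalling receptor, was at 82.6, 76.8, 53.8, 54.0 and 59.7 CPM in static 1, 3, 5, 7 and 9 and at 84.9, 64.5, 93.1, 65.9 and 75.3 CPM in stretch 2, 4, 6, 8 and 10. Static 5, 7 and 9 lay below every stretch library, while static 1 and 3 lay among the higher ones. IGF1R had a log2 fold change of 0.23 ± 0.15 (edgeR, adjusted p = 0.451), with an interval from 5.32% lower to 45.9% higher. With 1 library left out it ran from 0.15 without stretch 6 (unadjusted p = 0.320 in edgeR) to 0.33 without static 1 (unadjusted p = 0.0438, adjusted p = 0.323).

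IGF2R, the receptor that clears IGF2 and also sorts lysosomal enzymes, was at 223, 211, 242, 206 and 216 CPM in static 1, 3, 5, 7 and 9 and at 257, 244, 275, 228 and 199 CPM in stretch 2, 4, 6, 8 and 10. Stretch 2, 4 and 6 were above the static range and stretch 10 below it. Its log2 fold change was 0.13 ± 0.10 (edgeR, adjusted p = 0.550), and 0.082 without stretch 6. HTRA1, the secreted protease with the IGFBP-like module, was at 129, 125, 128, 109.8 and 144 CPM with static medium in the same order. It was at 157, 133, 130.008, 105.5 and 130.004 CPM in stretch 2, 4, 6, 8 and 10. Its groups covered nearly the same range, and the log2 fold change was 0.044 ± 0.12 (edgeR, adjusted p = 0.885), from -0.030 without stretch 2 to 0.11 without stretch 8.

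As a group, 0 of the 8 genes passed over all genes in edgeR, where 0% of the 10968 genes were called. DESeq2 called 1 of the 8 (IGFBP7), beside 2.86% of all genes, and limma-voom 0, beside 0.00912%. At an unadjusted p under 0.05 there was 1 of 8 (12.5%), IGFBP7, beside 16.4% of all genes tested, so the share is near the background. Of the 8 estimates 6 were above 0 and 2 below. Their median log2 fold change was 0.080, and that of all genes was 0.00035. For none of the 8 were the groups free of overlap, which held for 3.72% of all genes tested (1.98% lower and 1.74% higher with stretch medium).

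IGFBP7 was also set against each other member inside the same library, a difference in log2 CPM that does not depend on scaling between libraries. Against IGFBP5 it was -3.44 ± 0.43 in static and -4.28 ± 0.28 in stretch libraries (SD, n = 5 each), a shift of -0.83. Against IGF2R the values were 0.31 ± 0.37 and -0.56 ± 0.40, and here the groups did not overlap, with static libraries from -0.033 to 0.73 and stretch libraries from -1.08 to -0.12. This was 1 of 7 such differences without overlap, and no share for such differences over all genes was computed. All 7 contain the IGFBP7 values, so they are not separate observations. The 7 shifts ran from -0.99 (against IGFBP2) to -0.75 (against IGFBP6). IGFBP7 was singled out by its smallest p in these libraries, so they are descriptions and no test was made of them.

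The static libraries fell into a similar order for some members. Static 1 and 3 were the highest 2 static libraries for IGFBP2 and for IGF1R and the lowest 2 for IGFBP7. Among pairs of static libraries, static 1 and 3 were also the closest in their whole count profile, at 5.75 in chi-square per degree of freedom against 8.12 to 23.0 for the others. The labels name no batch, and the part of this split in the results was not tested.

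The 5 tested genes whose log2 CPM followed IGFBP7 most closely over the 10 libraries were H1-5 (Pearson r = 0.97), RPL5 (0.97), RHOA (0.97), EMD (0.95) and S100A11 (0.95). These are the closest of all tested genes, so high values follow from the choice and no p is given. H1-5 encodes a linker histone, RPL5 a protein of the large ribosomal subunit and RHOA a small GTPase that controls actin stress fibres. EMD encodes the nuclear envelope protein emerin and S100A11 a calcium-binding protein. Each was highest in static 7 or static 9 and lowest in stretch 2. For H1-5 the values were 33.2, 27.5, 40.9, 47.6 and 47.6 CPM in static 1, 3, 5, 7 and 9 and 18.1, 32.7, 25.3, 22.5 and 31.3 CPM in stretch 2, 4, 6, 8 and 10. Deviations from the group means alone gave r from 0.87 to 0.95 for the 5 genes, values that the same choice favours. None of the 5 was called by edgeR (adjusted p from 0.109 to 0.150).

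**Figure D3:**
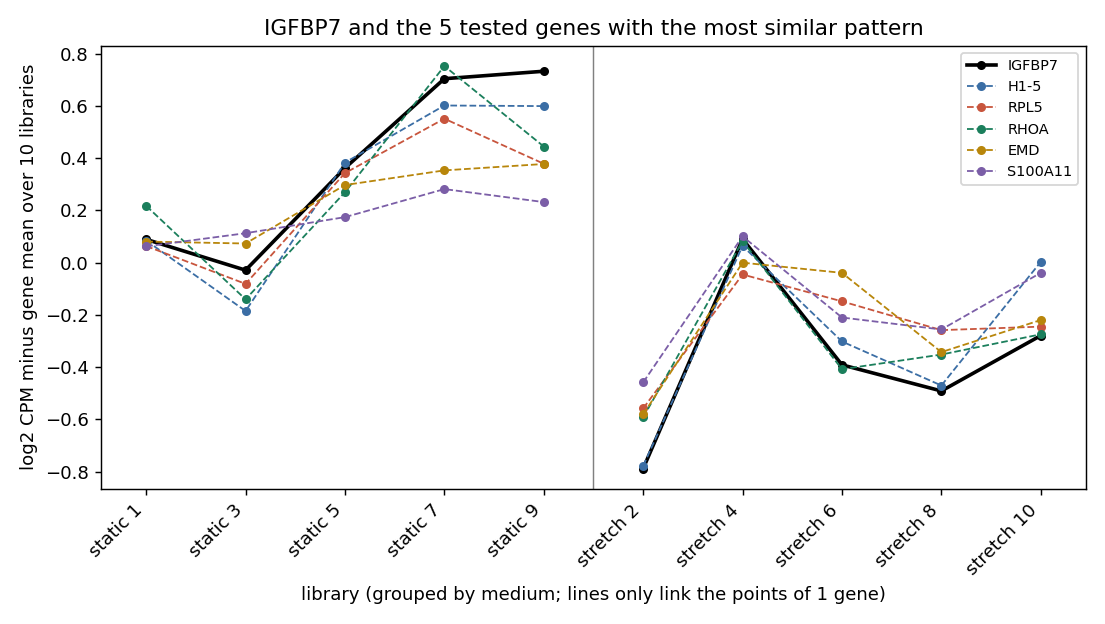
Log2 CPM minus each gene's mean over the 10 libraries (y axis) for IGFBP7 (solid) and the 5 genes with the highest Pearson correlation to it (dashed), by library (x axis). All 6 genes are low in stretch 2, high in static 7 and 9, and near their mean in stretch 4.

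Other genes of the IGF axis were taken from lists of 73 distinct names. Of these, 62 were in the table and 53 were tested. None was called over all genes by edgeR or limma-voom, and DESeq2 called 3 (PTPN11, TXNIP and IGF2BP3, each lower), where it called 2.86% of all genes. At an unadjusted p under 0.05 in edgeR there were 15 (28.3%) in either direction, beside 16.4% of all genes tested. Of the 53 tested, 5 were higher and 10 lower with stretch medium. Among all genes 8.08% were on the higher and 8.37% on the lower side. The median log2 fold change of the 53 was -0.0096.

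The ligand gene IGF1 was barely read. It had between 0 and 5 counts in a library, with 0 in static 5, static 7 and stretch 4, which is close to the floor of 3 counts (0.355 to 0.709 CPM by library). IGF2 was not analysed here. IGFBP1, a binding protein of liver, had 5 to 13 counts per library and was not tested. The insulin receptor gene INSR had means of 10.6 ± 1.43 CPM in static and 12.6 ± 3.48 CPM in stretch libraries (SD, n = 5 each), a log2 fold change of 0.25 ± 0.19 with an interval that spans 0, and 0.14 without stretch 6.

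Of the 14 proteases, inhibitors and processing enzymes listed, 9 were tested. STC1 and STC2 encode stanniocalcins, which bind PAPPA and block it. STC1 was at 1959, 1800, 1874, 1180 and 1777 CPM in static 1, 3, 5, 7 and 9 and at 1830, 1886, 2358, 1640.3 and 1979 CPM in stretch 2, 4, 6, 8 and 10. Static 7 was the lowest library and stretch 6 the highest, and the log2 fold change of 0.17 ± 0.13 did not pass (edgeR, adjusted p = 0.530). It was 0.066 without static 7 and 0.096 without stretch 6. STC2 was at 347, 386, 234, 359 and 262 CPM with static medium and at 246, 242, 295, 254 and 296 CPM with stretch medium, in the same order. Static 1, 3 and 7 were above every stretch library and static 5 below them, with a log2 fold change of -0.25 ± 0.13 (edgeR, adjusted p = 0.362).

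In the same list, 1 gene was higher and 1 lower at an unadjusted p under 0.05, or 22.2% of the 9 tested beside 16.4% of all genes. FURIN, a convertase that processes the precursors of IGF1R and IGF ligands, averaged 73.2 ± 12.3 CPM in static and 96.0 ± 12.5 CPM in stretch libraries, a log2 fold change of 0.39 ± 0.13 (edgeR, adjusted p = 0.167). ADAM9, a membrane metalloprotease reported to cut IGFBP5, was at 511 ± 123 and 393 ± 59.9 CPM, or -0.38 ± 0.15 (adjusted p = 0.226). Without static 7, where ADAM9 was highest at 726 CPM, the estimate was -0.22. HTRA3, a relative of HTRA1 with the same kind of module, was at 9.66 ± 0.487 and 8.31 ± 1.88 CPM, or -0.22 ± 0.17.

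The 7 genes of surface partners of binding proteins divided in both directions, and 4 (57.1%) had an unadjusted p under 0.05, beside 16.4% of all genes tested. Integrin subunits differed in sign: ITGB1 averaged 116 ± 20.3 CPM in static and 86.2 ± 15.8 CPM in stretch libraries (log2 fold change -0.43 ± 0.14), and ITGA5, its fibronectin-binding partner, at 600.1 ± 97.4 and 763 ± 129 CPM (0.35 ± 0.13). ITGAV, the alpha v subunit, was at 260 ± 28.5 and 218 ± 12.1 CPM, and its groups did not overlap, with every static library above every stretch library. A lower level without overlap was seen for 1.98% of all genes tested. CAV1, the coat protein of caveolae, was at 14.5 ± 3.10 and 9.43 ± 2.75 CPM, or -0.61 ± 0.21. None of the 4 passed over all genes (edgeR, adjusted p from 0.167 to 0.236). TMEM219, a receptor for IGFBP3, and LRP1, a large endocytic receptor, were at 0.23 ± 0.14 and 0.019 ± 0.10 on the log2 fold change scale.

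Below the receptor, 26 of 30 adaptors and kinases were tested, of which 16 lay above 0 and 10 below it (median log2 fold change 0.071). The docking proteins IRS1 and IRS2 were at -0.21 ± 0.13 and 0.026 ± 0.14, and with 1 library left out IRS1 ran from -0.33 (without stretch 4) to -0.12 (without stretch 6) and IRS2 from -0.028 to 0.11. At an unadjusted p under 0.05 there were 4 (15.4%), beside 16.4% of all genes. AKT2, a kinase of insulin and IGF signalling (0.36 ± 0.11), and the adaptor SHC1 (0.21 ± 0.093) were higher. The phosphatase PTPN11 (SHP2), which carries receptor signals to the ERK pathway, and PIK3CA, the catalytic subunit p110 alpha (-0.37 ± 0.18), were lower. PTPN11 was at 243, 243, 264, 278 and 229 CPM in static 1, 3, 5, 7 and 9 and at 170, 218, 144, 186 and 199.5 CPM in stretch 2, 4, 6, 8 and 10. Its groups did not overlap, which held on the lower side for 1.98% of all genes tested. The log2 fold change of PTPN11 was -0.45 ± 0.12 (edgeR, adjusted p = 0.114). DESeq2 called PTPN11 lower (adjusted p = 0.0194).

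FOXO transcription factors are held out of the nucleus when IGF signalling is active, and 9 of 13 listed target genes were tested. Of these, 3 estimates were above 0 and 6 below, and their median was -0.14 on the log2 scale. TXNIP, an arrestin-like brake on glucose uptake that also answers to other regulators, was at 203, 159, 148, 194 and 154 CPM in static 1, 3, 5, 7 and 9. It was at 128, 93.9, 137, 102 and 124 CPM in stretch 2, 4, 6, 8 and 10. The groups did not overlap, which held on the lower side for 1.98% of all genes tested. The log2 fold change was -0.55 ± 0.13 (edgeR, adjusted p = 0.0995), and DESeq2 called it lower (adjusted p = 0.0111). SESN1, a stress-induced inhibitor of mTORC1, was at -0.39 ± 0.13 and the repressor BCL6 at 0.44 ± 0.18, both with an unadjusted p under 0.05 and no call over all genes. TXNIP, SESN1 and BCL6 were the 3 of 9 (33.3%) with such a p, beside 16.4% of all genes tested. Without static 7 the BCL6 estimate was 0.28.

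The IGF2BP genes encode proteins that bind IGF2 mRNA and many others. IGF2BP3 averaged 158 ± 19.0 CPM in static and 117 ± 16.9 CPM in stretch libraries, a log2 fold change of -0.43 ± 0.12 (edgeR, adjusted p = 0.129), and DESeq2 called it lower (adjusted p = 0.0396). Its groups overlapped through static 9, at 135 CPM, and stretch 4, at 139 CPM. Of the 3 genes, IGF2BP3 and IGF2BP1 (66.7%) had an unadjusted p under 0.05 in edgeR, beside 16.4% of all genes tested. IGF2BP1 was at -0.36 ± 0.15 and IGF2BP2 at -0.048 ± 0.10 on the log2 fold change scale.

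**Figure D4:**
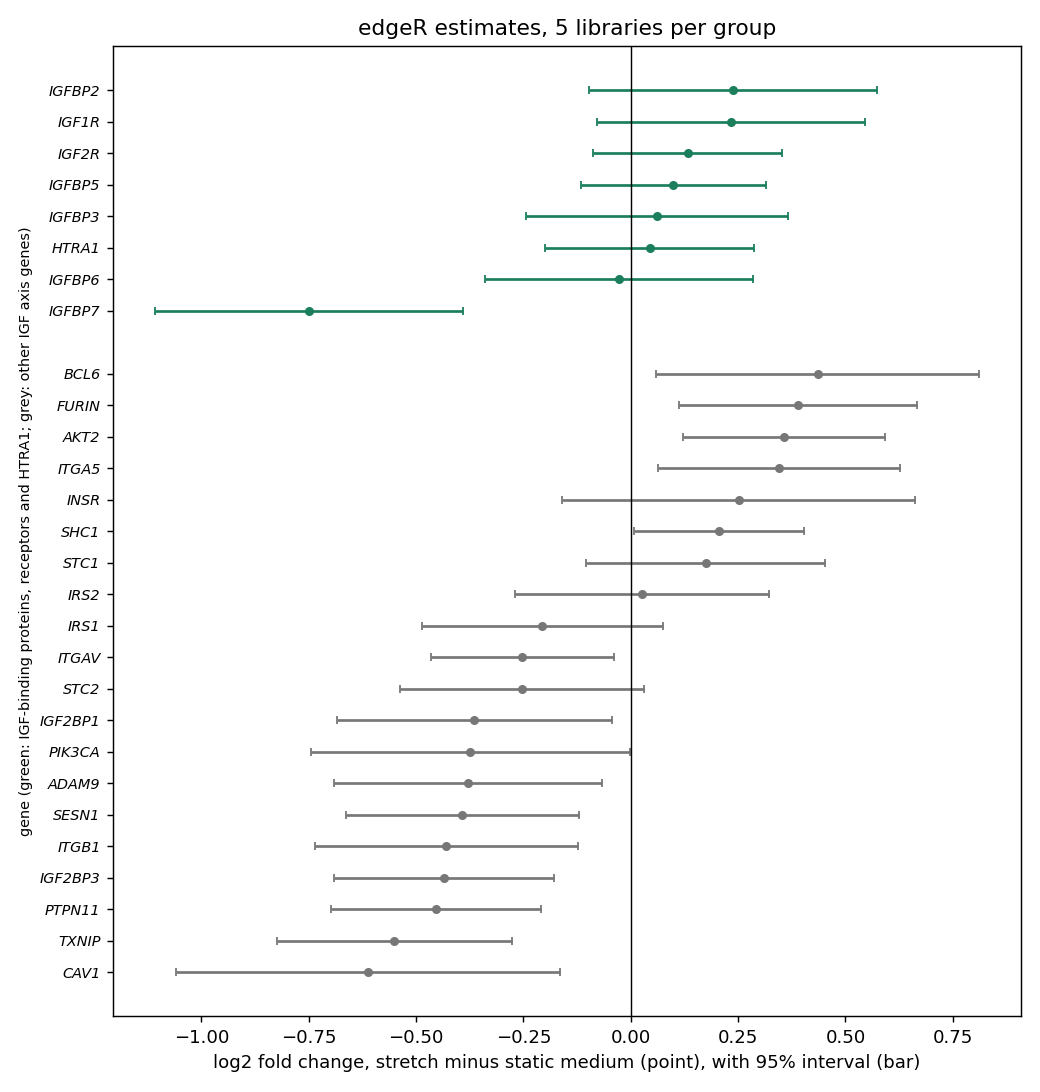
Log2 fold change, stretch minus static medium (x axis; bars are 95% intervals from edgeR), for the 8 analysed genes (green) and for other IGF axis genes with an unadjusted p under 0.05 or chosen by role (grey). Of the green intervals only that of IGFBP7, from -1.11 to -0.39, lies off 0.

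The fibroblast identity of the cells was checked by markers. All 8 fibroblast markers were tested, with summed levels of 13420 to 15332 CPM in static and 11681 to 15239 CPM in stretch libraries. Of these, COL1A1 was higher with stretch medium at an unadjusted p of 0.0357 in edgeR (log2 fold change 0.22). COL1A1 was the 1 marker of the 8 (12.5%) under 0.05 by that test, beside 16.4% of all genes tested. The fibroblast markers divided in direction, with 5 estimates above 0 and 3 below. Those below were COL1A2 (-0.038), COL3A1 (-0.15) and VIM (-0.38) on the log2 fold change scale. VIM ran from 4057 to 5073 CPM in static and from 1580 to 4328 CPM in stretch libraries. Of 10 markers of A549 and lung epithelium 6 were in the table, with summed levels of 30.9 to 38.2 and 34.8 to 41.4 CPM. CDH1, the epithelial cadherin, was at 0 to 0.522 CPM in any library. KRT18, a keratin also found in cultured fibroblasts, ran from 7.31 to 13.4 CPM in static and from 11.1 to 16.7 CPM in stretch libraries (log2 fold change 0.40, unadjusted p = 0.0384 in edgeR). KRT18 was the 1 of 5 tested epithelial markers (20%) with an unadjusted p under 0.05, beside 16.4% of all genes tested. The others were KRT19 at 0.13, KRT8 at 0.077, MUC1 at 0.0019 and EPCAM at -0.0056 on the log2 fold change scale. Of 5 endothelial markers 4 were in the table, with 53.7 to 65.9 and 48.4 to 68.2 CPM, nearly all of it TEK, while VWF was at 0 to 0.770 CPM. Endothelium is a rich source of IGFBP7. Of the 2 endothelial markers tested, KDR was at 0.46 and TEK at -0.055 on the log2 fold change scale (unadjusted p = 0.119 and 0.661 in edgeR). The 5 smooth muscle and pericyte markers summed to 224 to 371 and 335 to 388 CPM, most of it MCAM (183 to 318 and 265 to 330 CPM). MYH11 was at 0 to 0.440 and 0 to 1.13 CPM, and DES at 0.392 to 1.415 and 0.192 to 1.79 CPM. Of the 3 tested, CSPG4 was at 0.33 (unadjusted p = 0.0379 in edgeR), MCAM at 0.30 and RGS5 at -0.059 on the log2 fold change scale. CSPG4 was the 1 of these 3 (33.3%) with an unadjusted p under 0.05, beside 16.4% of all genes tested. The part of these markers in the results was not tested. Library totals ran from 4231653 to 8455073 counts. In bulk RNA, fewer cells that express a gene and less RNA per cell cannot be told apart.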

How the data were processed

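MRC5 RNA was read in 10 libraries, 5 per medium. Per the labels' protocols, Trizol RNA went into the Ion AmpliSeq human transcriptome kit, a multiplex PCR of short targets. No molecular identifiers are mentioned, so floors reflect counting error alone. The submitters' processing notes name fastp 0.20.1, Salmon 1.9 and GRCh38. What each tool did, the annotation and the strand setting are not stated there. The authors deposited unscaled whole-number counts by Ensembl identifier, and the fewest libraries with a count above 0 for any gene was 5. Columns were matched to samples by the number in the title. Symbols were found for 13831 of 14054 identifiers.

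Genes were kept by filterByExpr (minimum count 10, minimum total 15), scaled by TMM and tested in R 4.3.3 with edgeR 4.0.16 (quasi-likelihood, stretch minus static, Benjamini-Hochberg over 10968 genes, threshold 0.05). Standard errors were taken from the F statistic and log2 CPM used a prior count of 2. Single genes were also compared by exact two-sided permutation over 252 arrangements. The code was tested on simulated data. Chi-square per degree of freedom between libraries of a group was 5.75 to 23.0, above sampling noise, so none was counted as a repeat deposit. Alternatives were 3 other scalings, 2 other filters, a robust fit, DESeq2 1.42.0, limma-voom (limma 3.58.1) and each library left out.

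The members and lists were chosen with earlier results of these data known. Named genes were the members, listed IGF genes with an unadjusted p under 0.05, 7 genes named by role (IGF1, IGF2, INSR, IRS1, IRS2, STC1, STC2) and the 5 genes most like IGFBP7. HTRA3, TMEM219, LRP1, IGFBP1, IGF2BP2 and POLR2B fall outside that rule and were picked with their values known. So were the markers named from the fixed marker lists: COL1A1, COL1A2, COL3A1, VIM, CDH1, EPCAM, KRT8, KRT18, KRT19, MUC1, TEK, KDR, VWF, CSPG4, MCAM, RGS5, MYH11 and DES.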

Additional observations from a re-analysis of the deposited data

Results flagged for a closer look

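In 2 of 56 sets of 5 libraries examined for a stray value, 1 library lay far from the other 4, and chance alone flags about 1 in 20. ADAM9 was at 726 CPM in static 7 against 430 to 486 CPM in the other static libraries. STC1 was at 1180 CPM in static 7 against 1777 to 1959 CPM. Among the IGF-binding proteins, receptors and HTRA1, no value was set apart in this way, although IGFBP6 was also highest in static 7.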

How the results depend on the processing

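No paired analysis was made, because the groups share no title number. Whether the libraries were prepared in pairs is not known from the titles. DESeq2 called 269 genes, 126 higher and 143 lower with stretch medium, and 1 of the 8 members (IGFBP7). Limma-voom called 1 gene and no member. With a library left out, edgeR called 0 to 39 genes and 0 to 1 members, and 1 to 2 members had an unadjusted p under 0.05. The 39 genes and the 1 member came without stretch 4, and the second member at an unadjusted p under 0.05 was IGF1R without static 1. Without stretch 6 there were 2 genes and without stretch 10 there was 1.

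IGFBP7, IGFBP2, IGFBP5, IGF1R and IGF2R kept their direction in all 18 alternatives. With a library left out, IGFBP7 ran from -0.88 to -0.65, IGFBP2 from 0.15 to 0.31, IGFBP5 from 0.013 to 0.14, IGF1R from 0.15 to 0.33 and IGF2R from 0.082 to 0.19. Members with estimates near 0 changed sign: IGFBP3 was -0.032 without static 3, HTRA1 was -0.030 without stretch 2 and -0.0048 without static 7, and IGFBP6 was 0.0038 with limma-voom, 0.0083 without stretch 2, 0.0046 without stretch 6 and 0.14 without static 7. IRS2 was -0.012 without static 1, -0.022 without stretch 2, -0.013 without static 3, -0.0081 without stretch 4 and -0.028 without stretch 8. With a library left out, IGFBP3 ran up to 0.15, HTRA1 to 0.11 and IRS2 to 0.11, and IGFBP6 down to -0.11. The cause was not tested.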
